A study of Mus musculus with 36 samples.

Results

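Liver markers of the hepatic lobule were followed through the diet groups of the study: 10 genes, taken as the array probes whose platform gene symbol was one of Glul, Cyp1a2, Cyp2e1, Slc1a2, Rhbg, Oat, Axin2, Tbx3 and Lgr5 (9 pericentral genes) or Cyp2f2 (1 periportal gene). They are 10 of the 16593 genes and 16 of the 25697 probes in the table, and 15 of the 16 probes, with at least 1 for every gene, were bright enough to be tested. The probe left out was the dimmest of 4 for Slc1a2 (ILMN_3047516), whose values lay between 58.8 and 83.7 in all mice. Total liver RNA came from 36 male C57BL/6J mice of 9 weeks, labelled C57BL\6 for their genetic background, with 1 array per mouse. Dams were fed either a high-fat (HF) or a low-fat (LF) diet up to weaning and their male pups were then put on either of the same diets, so that a group is named by the dam's diet first and the pup's own diet second. LF_LF held 9 mice born in 4 cages, HF_LF 9 mice from 5 cages, LF_HF 8 mice from 4 cages and HF_HF 10 mice from 4 cages. Every mouse was killed after a short fast, and the HF diet was also low in carbohydrate, so that every difference between diets is one of fat and carbohydrate at once. The 12 cages each had dams of 1 diet, with 6 cages and 17 mice for LF dams and 6 cages and 19 mice for HF dams.

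Blood crosses the liver lobule from the portal tract to the central vein, and hepatocytes along this path hold different enzymes. Those next to the portal tract make glucose and urea, while those around the central vein oxidize xenobiotics and, in the last rows of cells, capture ammonia as glutamine. Wnt ligands made by endothelial cells of the central vein, joined by R-spondin, keep the pericentral programme on through beta-catenin and its TCF/LEF partners on DNA. In whole liver, fewer cells of a type and less RNA per cell cannot be told apart, and neither can a wider zone and more RNA in the same zone.

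Promoters of the markers are shown because Wnt signals act on DNA through TCF/LEF factors, and 3 of them held the letters searched for. RefSeq promoters (GRCm38.p6, 250 bases before to 50 after the start of the gene) were matched for 7 of the 10 genes, and the letters CTTTGAA and CTTTGAT were searched on both strands, where they read TTCAAAG and ATCAAAG on the strand opposite. Capitals mark the match. The first 2 genes rose with the post-weaning diet in pups of either dam below, while the intensity of Cyp2e1 was level. No promoter was at hand for Rhbg, which rose in pups of HF dams, or for Tbx3 and Lgr5. The part of these letters in any rise was not tested.
Cyp1a2 promoter (chr9:57683606-57683905, minus strand): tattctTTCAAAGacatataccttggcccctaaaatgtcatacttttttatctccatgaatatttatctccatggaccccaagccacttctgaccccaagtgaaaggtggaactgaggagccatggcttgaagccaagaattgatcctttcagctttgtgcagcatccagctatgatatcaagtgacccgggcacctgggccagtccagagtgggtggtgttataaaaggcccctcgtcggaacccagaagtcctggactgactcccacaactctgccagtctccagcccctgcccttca
Slc1a2 promoter (chr2:102706188-102706487, plus strand): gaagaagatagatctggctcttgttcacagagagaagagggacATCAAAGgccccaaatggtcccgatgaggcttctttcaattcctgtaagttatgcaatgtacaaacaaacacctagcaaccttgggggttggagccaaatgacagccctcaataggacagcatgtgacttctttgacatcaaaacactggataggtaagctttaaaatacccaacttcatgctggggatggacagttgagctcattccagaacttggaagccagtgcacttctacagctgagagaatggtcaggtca
Cyp2e1 promoter (chr7:140763569-140763868, plus strand): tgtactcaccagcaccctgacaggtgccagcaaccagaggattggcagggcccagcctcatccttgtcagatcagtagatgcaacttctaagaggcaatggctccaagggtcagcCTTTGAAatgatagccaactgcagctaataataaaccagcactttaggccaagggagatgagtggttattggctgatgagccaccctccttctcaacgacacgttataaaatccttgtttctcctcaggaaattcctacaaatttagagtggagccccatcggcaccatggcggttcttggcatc
The matches began -244, -207 and -135 bases from the start of Cyp1a2, Slc1a2 and Cyp2e1. Among all RefSeq promoters of this length, 2842 of 32851 (8.65%) held the same letters. No match was found in the windows of Glul, Oat, Axin2 and Cyp2f2, which says only that these letters are not in those windows.

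The values analysed are the intensities the authors deposited, quantile-normalized, on a linear scale and not background-subtracted, so that a difference of a dim probe understates the change in its RNA. All arrays shared 1 distribution with a median of 71.5 and a highest value of 32949.1, and each array correlated with the others at a median of 0.985 to 0.992. The number of arrays limits the precision. Hepatocyte RNA was plain in every mouse, with a sum over 5 kept probes of Alb, Ttr, Apoa1, Trf and Serpina1a between 77339 and 93634. The Alb probe was dim, with group medians from 169.3 to 213.5, so that nearly all of the sum came from the other genes. The intensity of a probe is thus no measure of how abundant its RNA is. Median intensities over the 36 mice spanned the scale, from 24924 for Cyp2e1 and 12297 for Cyp2f2 down to 104.4 for Glul, 95 for Lgr5 and 91.3 for Rhbg, and levels of different probes are not set against each other. The Glul probe sat near the dim end of the scale, as did the only probe of Rhbg, Lgr5 and Axin2, and their values carry the least signal above background.

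**Figure D1:**
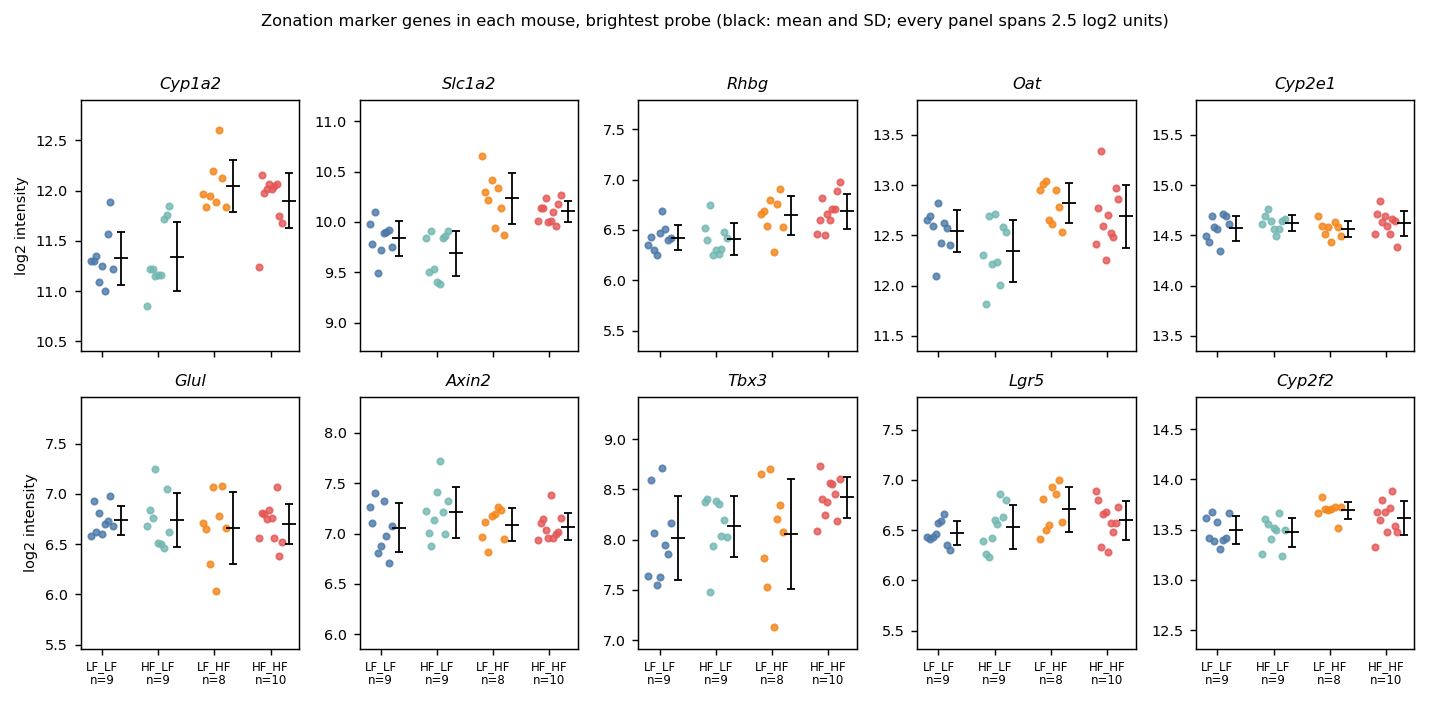
Log2 intensity of each zonation marker (brightest probe) in each mouse, in the 4 groups named by dam diet and then pup diet. Points are mice, black marks are the group mean with its SD, and every panel spans the same range of log2 units. Cyp1a2 and Slc1a2 sat higher in LF_HF and HF_HF than in LF_LF and HF_LF, and Cyp2e1 was level in all groups.

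The first question was what the HF diet after weaning did to the markers in the pups whose dams ate LF, by setting 8 LF_HF mice against 9 LF_LF mice. Cyp1a2, the pericentral cytochrome that oxidizes caffeine and aromatic amines, rose 1.65-fold (95% interval 1.40 to 1.94), and Slc1a2, the glutamate transporter of the cells around the central vein, rose 1.32-fold (1.15 to 1.52). The other 8 genes did not pass the test. Over the whole array 3.06% of probes changed in this comparison, with 1.77% risen and 1.29% fallen, at a false discovery rate of 5% (limma, Benjamini-Hochberg over 12289 probes), and of the 15 marker probes 5 rose and 0 fell.

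The same comparison in the offspring of HF dams set 10 HF_HF mice against 9 HF_LF mice. Cyp1a2 rose 1.47-fold (95% interval 1.23 to 1.77), Slc1a2 1.33-fold (1.19 to 1.49) and Rhbg, an ammonium transporter of the same cells, 1.21-fold (1.09 to 1.34). The other 7 genes did not pass the test. The array as a whole moved more here, with 11.3% of probes changed, 5.15% risen and 6.11% fallen, and of the 15 marker probes 6 rose and 0 fell. The median log2 difference over the brightest probes of the 10 genes was 0.21 in pups of either dam, beside -0.0031 over all kept probes in pups of LF dams and -0.0061 in pups of HF dams. These 2 comparisons share no mice, but the markers were chosen with earlier results of these data known. The medians are therefore a description and not a test.

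**Figure D2:**
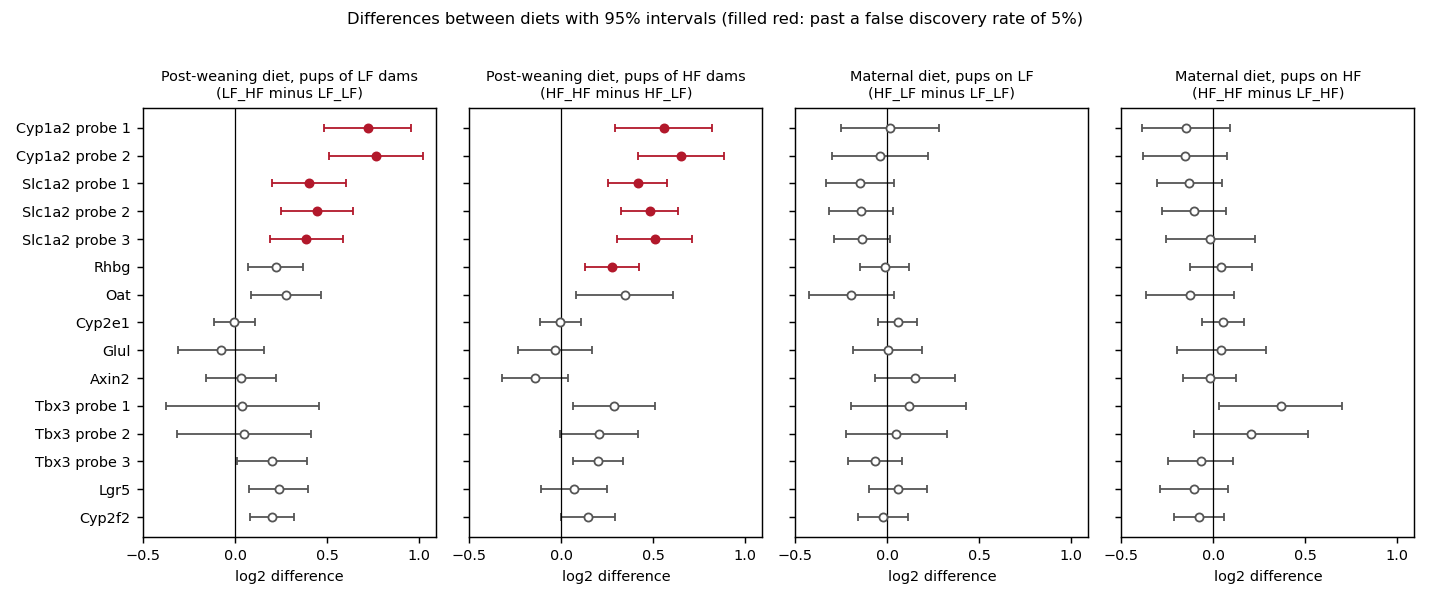
Log2 differences of the 15 kept marker probes with 95% intervals, for the post-weaning diet (left, HF minus LF) and the maternal diet (right, HF dam minus LF dam). Filled red points passed a false discovery rate of 5%: 5 probes of Cyp1a2 and Slc1a2 in pups of LF dams, 6 probes of Cyp1a2, Slc1a2 and Rhbg in pups of HF dams, and none for the maternal diet.

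Among the enzymes of xenobiotic metabolism, Cyp1a2 was read by 2 probes. At ILMN_2739847 the intensity in LF_LF ran from 2044.4 through a median of 2514.4 to 3786.2, and in LF_HF from 3653.2 through 3978.0 to 6200.4. In HF_LF it ran from 1847.5 through 2387.1 to 3673.2, and in HF_HF from 2418.7 through 4143.8 to 4573.3. Both HF-fed groups were high, and the groups overlapped by a few mice: 8 of 9 LF_LF mice lay below every LF_HF mouse, and 7 of 10 HF_HF mice lay above every HF_LF mouse. The log2 difference was 0.72 ± 0.11 (SE, adjusted p = 0.00125) in pups of LF dams and 0.56 ± 0.13 (adjusted p = 0.00606) in pups of HF dams. At ILMN_2795106 the differences were 0.76 ± 0.12 (adjusted p = 0.00149) and 0.65 ± 0.11 (adjusted p = 6.54e-04). There all 8 LF_HF mice, from 3166.5 up, lay just above all 9 LF_LF mice, which reached 3124.4, in a comparison where 3.06% of all probes were called. The share of all probes whose groups did not overlap was not counted. The deviations of both probes from the group means correlated at 0.86 over the 36 mice, as a description.

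Mice of the LF-fed groups were not uniform in Cyp1a2. Among the HF_LF mice the 3 highest, 3374.6, 3470.6 and 3673.2, were the mice of cages 20 and 12, while the mice of cages 1, 10 and 23 lay between 1847.5 and 2390.5. A single HF_HF mouse, replicate 1 from cage 10, stood below the other 9 at 2418.7, and of the HF_LF mice of its cage 1 was the lowest of its group, at 1847.5, and the other lay at the group's median of 2387.1. Leaving this mouse out gave a log2 difference of 0.63 ± 0.11 (adjusted p = 0.00105) at ILMN_2739847. Leaving out the 5 mice of cage 23 gave 0.44 ± 0.16 at this probe of Cyp1a2, and the call was lost (adjusted p = 0.116).

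Cyp2e1, which oxidizes ethanol and paracetamol, was level. Its intensity lay between 20793.4 and 26828.4 in LF_LF and between 22989.2 and 27718.5 in HF_LF. In LF_HF it lay between 22170.7 and 26517.6, and in HF_HF between 21361.4 and 29293.6, so that all groups overlapped almost fully. For the post-weaning diet the fold was 0.997 (95% interval 0.922 to 1.08) in pups of LF dams and 0.996 (0.923 to 1.08) in pups of HF dams. The intervals reach a change of intensity of 1.08-fold at most upward. By median intensity this probe lay at percentile 99.9 of all probes, near the highest value of 32949.1. A rise in its RNA could therefore be understated, and the intervals do not bound the RNA change. The SD among mice was between 0.08 and 0.13 log2 units in each group.

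A second set of markers carries or makes ammonium, glutamate or glutamine around the central vein: Slc1a2, Rhbg, Oat and Glul. Slc1a2 at its brightest probe (ILMN_3076439) ran from 721.8 through 947.9 to 1094.9 in LF_LF and from 937.4 through 1228.2 to 1611.8 in LF_HF. In HF_LF it ran from 669.1 through 915.2 to 965.3, and in HF_HF from 992.8 through 1112.4 to 1236.4. In pups of HF dams the groups did not overlap, with all 10 HF_HF mice above all 9 HF_LF mice. There 11.3% of all probes were called, and the share whose groups did not overlap was not counted. In pups of LF dams 6 of 8 LF_HF mice lay above every LF_LF mouse. The log2 difference was 0.40 ± 0.10 (adjusted p = 0.0254) in pups of LF dams and 0.42 ± 0.08 (adjusted p = 0.00131) in pups of HF dams.

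The other kept probes of Slc1a2 moved the same way. ILMN_3123195 differed by 0.44 ± 0.09 (adjusted p = 0.0103) and 0.48 ± 0.07 (adjusted p = 2.08e-04), and the dim ILMN_2642339 by 0.39 ± 0.10 (adjusted p = 0.0281) and 0.51 ± 0.10 (adjusted p = 0.00172). In pups of LF dams the call of the brightest Slc1a2 probe was near the threshold. It was lost without LF_LF replicate 4 (adjusted p = 0.0527), without LF_HF replicate 4 (adjusted p = 0.0529), without LF_HF replicate 6 (adjusted p = 0.0592) and without cage 4, 8 or 9, where the log2 difference was 0.32 ± 0.12, 0.46 ± 0.11 and 0.40 ± 0.11 in turn.

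Rhbg (ILMN_2707645) ran from 76.2 through 85.8 to 103.3 in LF_LF and from 77.7 through 102.1 to 119.9 in LF_HF. In HF_LF it ran from 76.1 through 84.6 to 107.7, and in HF_HF from 87.4 through 102.7 to 125.7. The groups overlapped, although 10 of 10 HF_HF mice lay above the HF_LF median and 7 of 8 LF_HF mice above that of LF_LF. The log2 difference was 0.22 ± 0.07 (adjusted p = 0.107) in pups of LF dams and 0.28 ± 0.07 (adjusted p = 0.0146) in pups of HF dams. Only the latter passed, and the test of the difference between them, the interaction, gave 0.06 ± 0.11 (adjusted p = 0.969). Subtracting the 10th percentile of each array, which removes much of the background, gave Rhbg 0.58 ± 0.20 (adjusted p = 0.128) and 0.77 ± 0.19 (adjusted p = 0.0114). In pups of HF dams the call of Rhbg was lost without cage 20, 21 or 23 (adjusted p = 0.0605, 0.0973 and 0.0703). In pups of LF dams Rhbg passed without LF_HF replicate 5, the lowest of its group at 77.7 (0.27 ± 0.06, limma, adjusted p = 0.0231).

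Oat, the ornithine aminotransferase that feeds glutamate to glutamine synthetase, ran from 4376.4 through 6179.2 to 7261.5 in LF_LF and from 5946.1 through 7479.8 to 8453.1 in LF_HF. In HF_LF it ran from 3620.8 through 5063.2 to 6725.6, and in HF_HF from 4899.0 through 6423.1 to 10363.5. The medians were higher on HF in pups of either dam, with wide overlap, and the log2 differences of 0.28 ± 0.09 (adjusted p = 0.103) and 0.35 ± 0.13 (adjusted p = 0.086) did not pass. Their 95% intervals ran from 0.09 to 0.47 and from 0.08 to 0.61. Fitting all 36 mice together gave Oat an adjusted p of 0.0424 in pups of HF dams, with the same difference.

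Glul, glutamine synthetase, ran from 95.7 through 104.2 to 126.3 in LF_LF and from 65.6 through 103.0 to 135.6 in LF_HF. In HF_LF it ran from 88.1 through 102.4 to 151.8, and in HF_HF from 83.2 through 108.1 to 134.4. All groups overlapped, with log2 differences of -0.08 ± 0.11 (adjusted p = 0.811) and -0.03 ± 0.10 (adjusted p = 0.879). At this dim probe the 95% intervals, from -0.31 to 0.16 and from -0.24 to 0.17, cover a change of intensity in either direction. Thus 2 of the 4 genes of this set rose past the threshold in pups of HF dams, 1 in pups of LF dams, and 0 fell. Over the whole array 5.15% of probes rose and 6.11% fell in pups of HF dams, and 1.77% rose and 1.29% fell in pups of LF dams.

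Of the markers that belong to Wnt signalling itself, none passed in either post-weaning comparison. Axin2, a negative feedback target of the pathway, ran from 104.8 to 169.4 in LF_LF, from 117.1 to 210.6 in HF_LF, from 112.5 to 154.1 in LF_HF and from 122.1 to 166.5 in HF_HF. Its log2 differences were 0.03 ± 0.09 (adjusted p = 0.922) in pups of LF dams and -0.14 ± 0.09 (adjusted p = 0.333) in pups of HF dams. Lgr5, the receptor for R-spondin, differed by 0.24 ± 0.08 (adjusted p = 0.0984) and 0.07 ± 0.09 (adjusted p = 0.689), with medians of 86.4, 94.2, 103.7 and 98.2 in LF_LF, HF_LF, LF_HF and HF_HF. Leaving out LF_HF replicate 1 brought Lgr5 past the threshold in pups of LF dams (0.28 ± 0.07, limma, adjusted p = 0.0402).

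Tbx3, a transcription factor of pericentral hepatocytes, was read by 3 kept probes that did not move alike. The brightest (ILMN_1247220) had medians of 246.4 in LF_LF, 294.1 in HF_LF, 282.1 in LF_HF and 345.1 in HF_HF, and LF_HF alone spanned 140.1 to 415.9. It differed by 0.04 ± 0.20 (adjusted p = 0.955) in pups of LF dams and 0.29 ± 0.11 (adjusted p = 0.0877) in pups of HF dams. ILMN_3139514 differed by 0.05 ± 0.18 and 0.20 ± 0.10. ILMN_3061990, the dimmest, differed by 0.20 ± 0.09 and 0.20 ± 0.07, and in pups of HF dams its adjusted p of 0.050 lay just above the threshold. Deviations of the first and second probe from the group means correlated at 0.95 over the 36 mice, and those of the third correlated at 0.41 and 0.51 with them. Leaving out cage 10 brought the brightest Tbx3 probe past the threshold in pups of HF dams (0.40 ± 0.11, adjusted p = 0.0259).

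Cyp2f2, the periportal marker and a cytochrome that activates naphthalene, ran from 10170.3 through 10975.5 to 13072.6 in LF_LF and from 11733.5 through 13335.4 to 14495.0 in LF_HF. In HF_LF it ran from 9670.8 through 11589.5 to 12991.8, and in HF_HF from 10313.4 through 12740.7 to 15176.0. All 8 LF_HF mice lay above the LF_LF median and 6 of them above every LF_LF mouse, while 7 of 10 HF_HF mice lay above the HF_LF median. Neither difference passed, at 0.20 ± 0.06 (adjusted p = 0.0645) and 0.14 ± 0.07 (adjusted p = 0.215). With the filter raised to the 75th percentile, which tests fewer probes, Cyp2f2 had an adjusted p of 0.0433 in pups of LF dams. Its 95% intervals ran from 0.08 to 0.32 and from -0.0023 to 0.29, and the second includes 0. Both estimates of the periportal marker lay on the same side of 0 as those of the pericentral genes that rose.

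Birth cages that held pups of both post-weaning diets gave a comparison within cage, in 2 cages of LF dams and 3 of HF dams. Cyp1a2 was higher on HF in 5 of 5 cages, by 0.20 to 0.89 log2 units at ILMN_2739847. Slc1a2 was higher in 5 of 5 cages at each of its 3 kept probes, by 0.17 to 0.77 at the brightest, and Oat in 5 of 5, by 0.17 to 0.58. Rhbg was higher in 5 of 5 as well, but by only 0.00029 in cage 10 and by up to 0.34 elsewhere. Lgr5 was higher in 4 of 5, Cyp2e1, Glul, Cyp2f2 and each Tbx3 probe in 3 of 5, and Axin2 in 1 of 5. Cage 10 held only 1 HF-fed mouse and cage 20 only 1 LF-fed mouse. The share of all probes that were higher on HF in 5 of 5 cages was not counted.

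**Figure D3:**
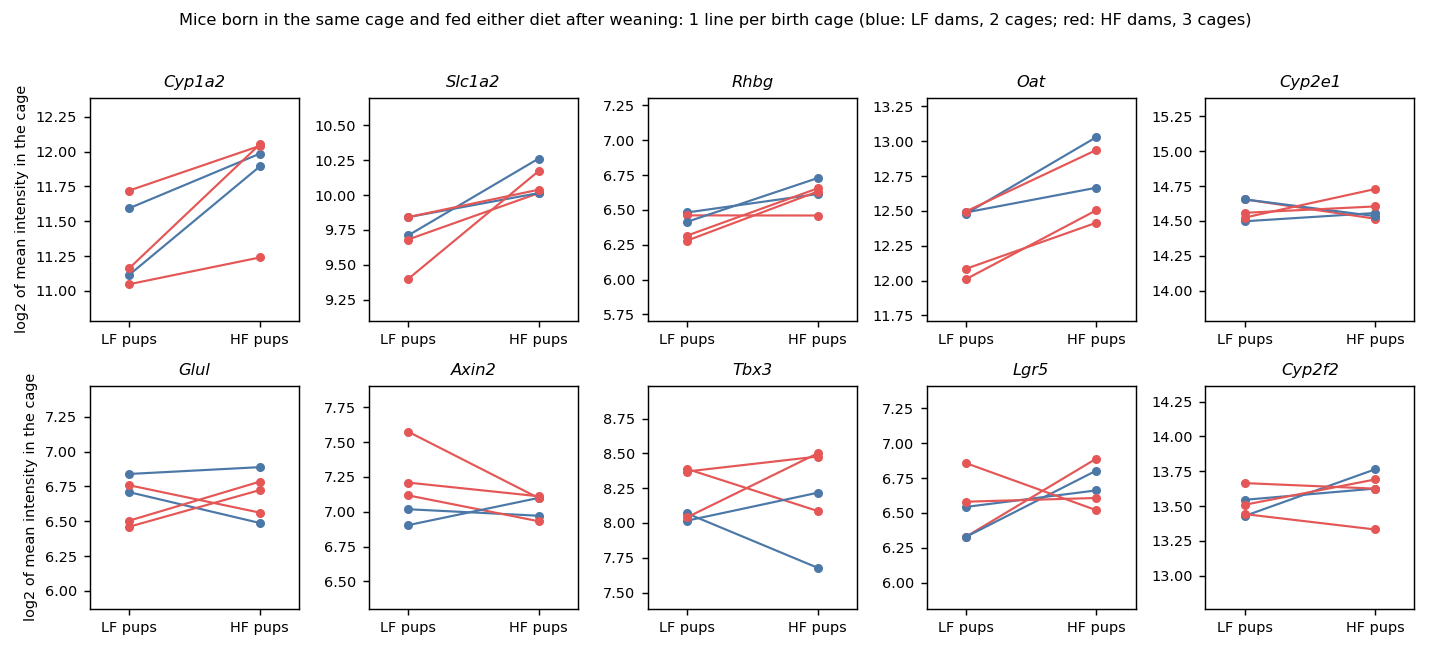
Log2 of the mean intensity of the LF-fed and the HF-fed mice born in the same cage, for the brightest probe of each marker. Each line is 1 of the 5 birth cages that held both diets, blue for LF dams and red for HF dams; all 5 lines rise for Cyp1a2, Slc1a2 and Oat, and 1 of 5 rises for Axin2.

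With cage as a fixed term, which rests on these mixed cages, the log2 difference of Cyp1a2 (ILMN_2739847) was 0.62 ± 0.15 (adjusted p = 0.084) in pups of LF dams and 0.55 ± 0.11 (adjusted p = 0.00495) in pups of HF dams. Slc1a2 (ILMN_3076439) gave 0.38 ± 0.12 (adjusted p = 0.229) and 0.50 ± 0.10 (adjusted p = 0.0067), and Rhbg gave 0.21 ± 0.11 (adjusted p = 0.498) and 0.26 ± 0.09 (adjusted p = 0.101). The differences of Cyp1a2 and Slc1a2 kept their direction, while the calls in pups of LF dams were lost, in a fit that called 42 of all 12289 probes there. With 1 mean per cage and group, Cyp1a2 gave 0.63 ± 0.11 (adjusted p = 0.0468) and 0.41 ± 0.19 (adjusted p = 0.275), and Slc1a2 gave 0.44 ± 0.12 (adjusted p = 0.183) and 0.39 ± 0.10 (adjusted p = 0.0534). That fit called 30 probes of the array in pups of LF dams and 371 in pups of HF dams. Slc1a2 still passed in pups of HF dams at its other kept probes, ILMN_3123195 (0.45 ± 0.10, adjusted p = 0.0294) and ILMN_2642339 (0.46 ± 0.10, adjusted p = 0.0313).

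The next question was whether the dam's diet left a difference in the markers of pups fed alike after weaning. On LF (HF_LF against LF_LF) no marker passed, and 0 of all 12289 probes were called by limma (0%), with 803 at an unadjusted p under 0.05. Oat lay lowest, at -0.20 ± 0.11 (adjusted p = 0.791), and the 3 kept probes of Slc1a2 lay between -0.15 and -0.14 (adjusted p between 0.791 and 0.803). Cyp1a2 differed by 0.01 ± 0.13 and -0.04 ± 0.13 at its probes, and Cyp2e1 by 0.06 ± 0.05.

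On HF (HF_HF against LF_HF) no marker passed either, in a comparison that called 33 probes (0.269%), with 1354 at an unadjusted p under 0.05. The brightest Tbx3 probe lay highest, at 0.36 ± 0.16 (adjusted p = 0.404), with 4 of 8 LF_HF mice below every HF_HF mouse, and the Cyp1a2 probes lay at -0.15 ± 0.11 each (adjusted p = 0.663 and 0.627). The 95% interval of Cyp1a2 (ILMN_2739847) for the dam's diet ran from -0.25 to 0.28 on LF and from -0.39 to 0.09 on HF. Cages are nested in the dam's diet, and with 1 mean per cage both maternal comparisons called 0 probes of the array.

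The interaction asked whether the post-weaning difference of a marker depended on the dam's diet. No marker passed and 0 probes were called over the array (0%), with 776 at an unadjusted p under 0.05. The interaction was -0.16 ± 0.18 for Cyp1a2 (ILMN_2739847, adjusted p = 0.935), 0.02 ± 0.13 for Slc1a2 (ILMN_3076439, adjusted p = 0.991) and -0.17 ± 0.12 for Lgr5 (adjusted p = 0.892). The 95% interval for Cyp1a2 ran from -0.53 to 0.20.

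Other pericentral genes were read from a list of 26, of which 19 had a kept probe. In pups of LF dams 2 rose, 2 fell and 15 did not pass, and in pups of HF dams 4 rose, 3 fell and 12 did not pass, where 3.06% and 11.3% of all probes were called. The median log2 difference was -0.02 in the former and 0.06 in the latter. Cyp2c37, an arachidonate-oxidizing cytochrome, rose in both, by 0.37 ± 0.10 (adjusted p = 0.0421) and 0.74 ± 0.11 (adjusted p = 2.12e-04), and Slc13a3, a carrier of dicarboxylates, by 0.36 ± 0.07 (adjusted p = 0.00843) and 0.52 ± 0.13 (adjusted p = 0.0121). In pups of HF dams Aldh1a1, a retinaldehyde dehydrogenase, rose by 0.88 ± 0.17 (adjusted p = 0.00187).

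Pericentral genes also fell. Cyp3a11, the main drug-oxidizing cytochrome induced through Pxr, fell by 0.97 ± 0.20 (adjusted p = 0.00731) in pups of LF dams and fell by 1.54 ± 0.27 (adjusted p = 8.41e-04) in pups of HF dams. The glutathione transferase Gstm1 fell by 0.59 ± 0.09 (adjusted p = 0.00124) and fell by 1.17 ± 0.18 (adjusted p = 1.90e-04), and Gstm2 fell by 0.76 ± 0.14 (adjusted p = 0.00144) in pups of HF dams. The wider pericentral list thus held genes that rose and genes that fell in the same mice.

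Periportal genes other than Cyp2f2 came from a list of 24, of which 20 had a kept probe. In pups of LF dams 2 rose and 2 fell, and in pups of HF dams 1 rose and 2 fell, beside 3.06% and 11.3% of all probes called, and the share of the list called in pups of HF dams is near that of the array. The median log2 difference was 0.02 in each. G6pc, which releases glucose in gluconeogenesis, fell by 1.06 ± 0.19 (adjusted p = 0.00283) and fell by 0.69 ± 0.21 (adjusted p = 0.04), and Hsd17b6, a steroid dehydrogenase, fell by 0.65 ± 0.17 (adjusted p = 0.0439) and fell by 1.18 ± 0.24 (adjusted p = 0.00208). Apoa4, an apolipoprotein, rose by 1.08 ± 0.12 (adjusted p = 7.57e-05) and Gldc, of the glycine cleavage system, by 0.41 ± 0.09 (adjusted p = 0.011) in pups of LF dams, and Igf1 rose by 0.29 ± 0.06 (adjusted p = 0.00155) in pups of HF dams. The urea cycle genes Arg1, Ass1, Asl, Cps1 and Otc did not pass in either comparison.

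**Figure D4:**
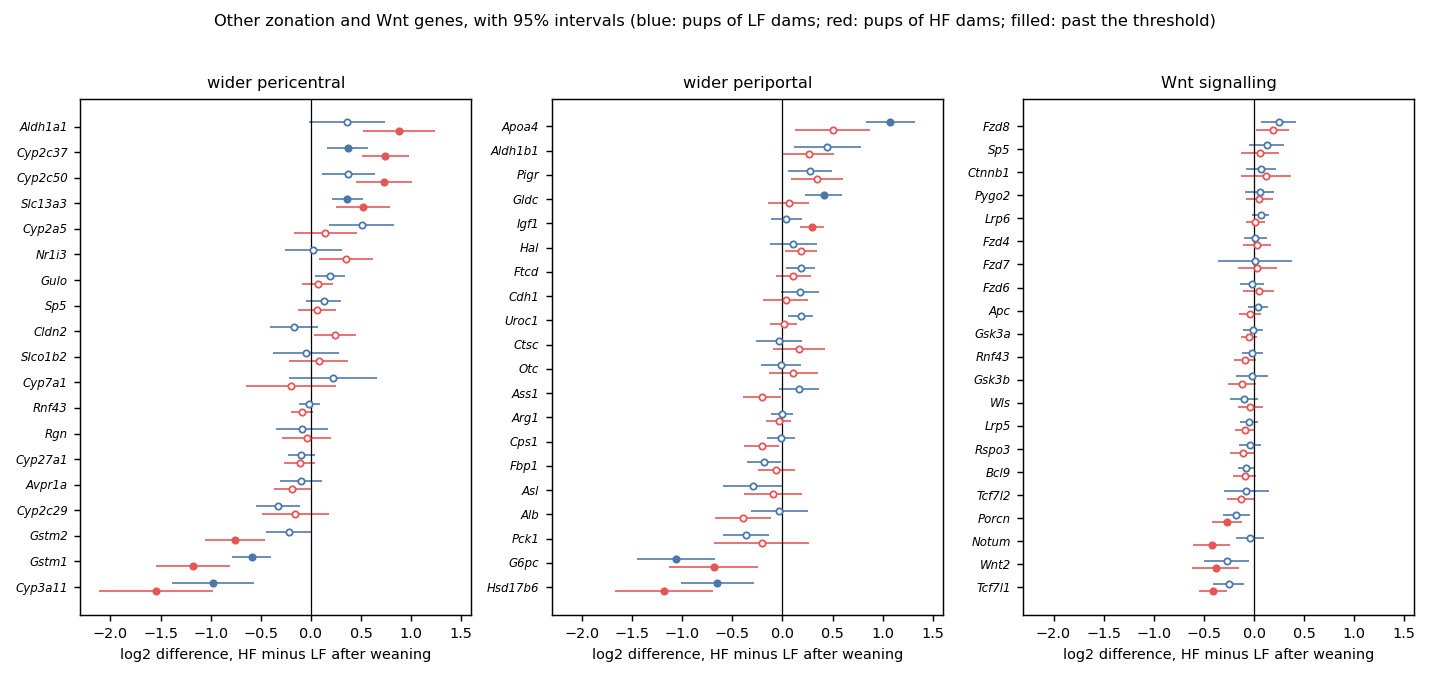
Log2 differences for the post-weaning diet (HF minus LF) with 95% intervals in the other pericentral, periportal and Wnt genes with a kept probe, blue in pups of LF dams and red in pups of HF dams. Filled points passed the threshold; Cyp3a11 lies lowest of the pericentral genes, at -1.54 in pups of HF dams, and the Wnt genes that passed all lie below 0.

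Genes of Wnt signalling, a list of 31 with 21 kept, gave 0 calls in pups of LF dams and 4 falls with 0 rises in pups of HF dams, where 6.11% of all probes fell and 5.15% rose. Notum, a secreted inhibitor that inactivates Wnt ligands, fell by 0.42 ± 0.09 (adjusted p = 0.00359), and Tcf7l1, a repressor of the TCF family, fell by 0.41 ± 0.07 (adjusted p = 5.63e-04). Wnt2, a ligand made by liver endothelial cells, fell by 0.38 ± 0.12 (adjusted p = 0.0329), and Porcn, which loads ligands with lipid, fell by 0.27 ± 0.07 (adjusted p = 0.0193). In pups of LF dams the same genes lay at -0.04 ± 0.07 for Notum, -0.25 ± 0.08 for Tcf7l1, -0.27 ± 0.11 for Wnt2 and -0.18 ± 0.07 for Porcn. Rspo3, the R-spondin of the central vein, differed by -0.04 ± 0.05 and -0.11 ± 0.06, and Ctnnb1, which encodes beta-catenin, by 0.07 ± 0.07 and 0.12 ± 0.12. No gene of this list passed for the interaction.

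Cyp1a2 is also a target of the aryl hydrocarbon receptor, whose battery was read from a list of 8 with 3 kept. Cyp1a1, Cyp1b1, Ahr, Ahrr and Tiparp were below the filter. Ugt1a6a, a glucuronosyltransferase of the battery, lay at -0.28 ± 0.16 (adjusted p = 0.41) in pups of LF dams and fell by 0.34 ± 0.09 (adjusted p = 0.0214) in pups of HF dams. Nqo1 differed by 0.07 ± 0.04 and -0.08 ± 0.07 and Arnt by 0.04 ± 0.05 and 0.10 ± 0.06, and neither passed. Both were dim, with group medians from 79.25 to 85.35 for Nqo1 and from 94.4 to 102.7 for Arnt, beside a filter of 71.5. The part of the receptor in the rise of Cyp1a2 was not tested.

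Markers of hepatocytes and of other cells the tissue could hold were read in the same comparisons. In pups of LF dams none of the 27 cell-type markers with a kept probe passed, where 3.06% of all probes did. In pups of HF dams, where 11.3% of all probes passed, the hepatocyte list had 0 of 5 past the threshold, and of the 6 endothelial markers Tek fell by 0.31 ± 0.06 (adjusted p = 9.92e-04) while all 6 lay below 0. The endothelial sum ran from 4119.9 to 5299.6 in LF_LF, 4120.5 to 5582.5 in HF_LF, 2413.7 to 5251.5 in LF_HF and 3456.3 to 5072.2 in HF_HF. Of the erythroid markers Hba-a1 fell by 0.48 ± 0.15 (adjusted p = 0.0414) and Alas2 rose by 0.30 ± 0.09 (adjusted p = 0.0325), and their sum ran from 6710.2 to 14687 in HF_LF and 4818.7 to 9828.9 in HF_HF. Cela1, the 1 kept pancreas acinar marker of 4, rose by 0.81 ± 0.23 (limma, adjusted p = 0.0264). It ran from 244.0 to 645.4 in HF_LF and from 282.4 to 1447.8 in HF_HF. Pnlip, Prss2 and Cpa1 had no kept probe, and only 3 of the 4 genes of this list were on the array. The part of these cell-type differences in the zonation marker differences was not tested.

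The last question was which markers varied together from mouse to mouse within a group. Over the 45 pairs of brightest probes, with the mean of each group removed, 0 passed Benjamini-Hochberg adjustment of Pearson's r or Spearman's rho (permutation within groups, two-sided, 36 mice), while 10 and 8 had an unadjusted p under 0.05. By Pearson's r the lowest p belonged to Slc1a2 with Rhbg, with r of 0.45 (permutation p = 0.00911, adjusted p = 0.145) and rho of 0.46 (permutation p = 0.00793, adjusted p = 0.119), and r was 0.47 without the 2 mice farthest from the median of Slc1a2. Its r was above 0 in all 4 groups, between 0.16 and 0.68. By Spearman's rho the lowest p belonged to Glul with Cyp2e1, with r of 0.40 (permutation p = 0.00919, adjusted p = 0.145) and rho of 0.47 (permutation p = 0.00405, adjusted p = 0.119), and 0.37 without its 2 farthest mice. Slc1a2 and Oat gave r of 0.41, Rhbg and Oat 0.40, Cyp1a2 and Cyp2e1 0.43, and Glul and Tbx3 0.42. The groups differed for the last 2 of these pairs. For Glul and Tbx3 r was 0.89 in LF_HF but -0.24 in HF_LF, and 0.36 without the 2 mice farthest from the median of Glul. For Cyp1a2 and Cyp2e1 it ran from 0.06 in HF_LF to 0.68 in LF_LF. Of the 45 pairs 25 had r above 0.

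**Figure D5:**
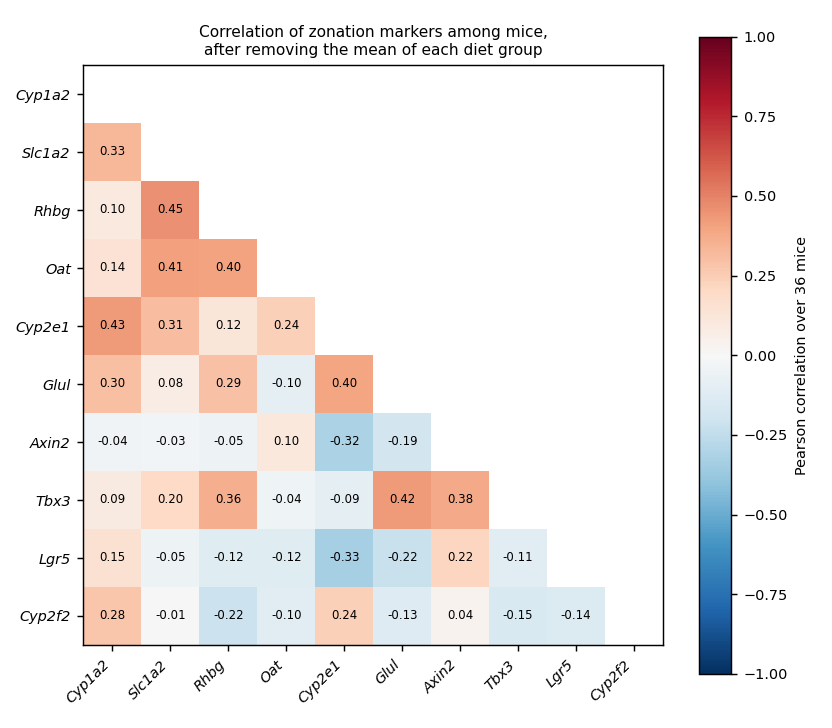
Pearson correlation of each pair of zonation markers over the 36 mice, after removing the mean of each diet group, from blue (negative) to red (positive). The values for Slc1a2, Rhbg and Oat lie between 0.40 and 0.45, and so do those of Cyp1a2 with Cyp2e1 (0.43) and Glul with Tbx3 (0.42). None of the 45 pairs passed the adjusted test.

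Genes whose deviations from the group means were most like those of 4 markers, over the 36 mice, were listed by Pearson's r as a description. Those of Glul were Prep (0.84), Aadat (0.81), Rgn (0.80) and Ndufb4 (0.79), the third of them on the pericentral list. Their probes were dim like that of Glul, with median intensities of 235, 135, 120 and 119 in turn, beside 104 for Glul. Those of Cyp2e1 were Sdhb (0.71), Npr2 (0.67), Cyp2c50 (0.66) and the dim probe of Slc1a2 (0.65), and those of Cyp1a2 were Car3 (0.69), Ppp1r3c (0.68), Hsd17b11 (0.66) and Pde6c (0.65). Those of Cyp2f2 were Cyp4a12a (0.66), Aox3 (0.66), Mindy2 (0.63) and Abca8a (0.62). All these values share the arrays and their normalization.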

How the data were processed

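Liver RNA was hybridized by the authors to Illumina MouseRef-8 v2.0 beadchips, 1 per mouse, and processed in BeadStudio per the submitters' notes (version not given in the sources used here). The deposited intensities were quantile-normalized by the authors on a linear scale. Log2 was taken, and a probe was kept where its median over the 36 arrays reached the median of all values (12289 kept, 13408 left out). Symbols came from the platform annotation, 8 of them updated.

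Groups were compared in pairs with limma 3.58.1 in R 4.3.3 (lmFit, eBayes with trend), without covariates, and the interaction in 1 fit of all mice, with Benjamini-Hochberg adjustment over the kept probes at 5%; ± values are standard errors. Counts of genes and lists used the brightest probe of a gene. Mice shared cages, so cage was tried as a random block (duplicateCorrelation, statmod 1.5.0), as a fixed term and through cage means. Other alternatives were the variance trend, the filter, background subtraction, median centring, 1 fit of all mice, mean probes, and each mouse or cage left out. Correlations used 100000 permutations within groups. Simulated arrays with known changes served to test the fits. The markers and lists were chosen with earlier results of these data known. Named genes are all markers, up to 4 genes per list past the threshold in a comparison, by size, and the 4 genes most alike to each of 4 markers. Other genes named were chosen after their values were seen.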

Additional observations from a re-analysis of the deposited data

Results flagged for a closer look

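For each marker probe and group the highest and lowest mouse were set against the others by the gap to the nearest mouse over the range of the group (Dixon's ratio, 95% level), and 5 of 60 sets had a mouse that stood apart, where chance gives about 1 in 20. In Cyp1a2 (ILMN_2739847), LF_HF replicate 6 was the highest of its group at 6200.4, and without it the log2 difference from LF_LF was 0.64 ± 0.10 (limma, adjusted p = 0.00238). HF_HF replicate 1 was the lowest of its group at both Cyp1a2 probes, at 2418.7 and 2326.6. Axin2 was highest in HF_HF replicate 6, at 166.5. Tbx3 (ILMN_1247220) was lowest in HF_LF replicate 3, at 177.9.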

How the results depend on the processing

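Counting genes by their brightest probe, 2 markers passed in pups of LF dams and 3 in pups of HF dams. With 1 mean per cage these counts were 1 and 0, and with cage as a fixed term 0 in pups of LF dams. Leaving out 1 mouse or 1 cage at a time gave 1 to 3 in pups of LF dams and 1 to 4 in pups of HF dams, the lowest of the latter without cage 23. Without removing group means 7 of 45 marker pairs correlated past the threshold, against 0 with them removed and 0 on cage averages. No marker passed for the maternal diet or the interaction under any setting run, and Cyp1a2 and Slc1a2 lay above 0 for the post-weaning diet at every kept probe under every setting run.

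Differences close to 0 changed sign, none of them past the threshold under either setting. With cage as a fixed term the log2 difference was -0.069 and -0.045 for the Tbx3 probes ILMN_1247220 and ILMN_3139514 in pups of LF dams, and 0.15 for Glul and 0.070 for Cyp2e1 in pups of HF dams. With 1 mean per cage it was -0.0066 for Cyp1a2 (maternal diet on LF) and -0.055 for Slc1a2 (interaction). With 1 mouse or cage left out, ranges in pups of LF dams were -0.14 to 0.012 for Glul, -0.039 to 0.031 for Cyp2e1, -0.044 to 0.13 for Axin2, and -0.054 to 0.17 and -0.029 to 0.17 for the Tbx3 probes. In pups of HF dams they were -0.14 to 0.040 for Glul, -0.080 to 0.021 for Cyp2e1 and -0.020 to 0.15 for Lgr5. They were -0.12 to 0.10 and -0.18 to 0.030 for the Cyp1a2 probes (maternal diet on LF), and -0.096 to 0.093 for Slc1a2 and -0.017 to 0.099 for Rhbg (interaction). The cause was not tested. By replicate number, no paired analysis was possible because the labels give none (those used here follow the order of accession); the fit with cage as a fixed term compared the post-weaning diets within cages. Signal over background limits Glul, Rhbg, Lgr5 and Axin2 most.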
